A study of Mus musculus with 12 samples.

Results

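The 10 genes described here encode cyclic nucleotide phosphodiesterases: Pde1a, Pde1b, Pde1c, Pde3a, Pde3b, Pde4b, Pde4d, Pde5a, Pde9a and Pde10a. They were taken by symbol from a count table of 25284 genes, and all 10 had a row and passed the filter on low counts. Pde1c was picked because it was lower on AZ6983 in these same mice, so its difference between the groups is given as a description without a test. RNA was sequenced from the aorta of 12 male ApoE-/- mice on a C57BL/6 background. All 12 lacked apolipoprotein E, carried subcutaneous osmotic minipumps from 10 weeks of age and ate a diet rich in fat and cholesterol until 18 weeks of age. For 8 weeks the pumps delivered either vehicle (cyclodextrin in saline, 6 control mice, called C1 to C6) or AZ6983 at 50 µmol per kg per day (6 mice, A1 to A6). AZ6983 is an agonist of the α7 nicotinic acetylcholine receptor (α7nAChR), the ligand-gated channel encoded by Chrna7, and the deletion of Apoe makes these mice prone to atherosclerosis. The study asked how the agonist changes gene expression in the atherosclerotic aorta, and here that question is put to the enzymes that end cyclic nucleotide signals.

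Cyclic AMP and cyclic GMP are made by adenylyl and guanylyl cyclases, carry hormone, nerve and nitric oxide signals into the cell, and are removed by phosphodiesterases, which cleave them to AMP and GMP. In vascular smooth muscle both nucleotides relax the vessel and restrain proliferation, through protein kinase A, protein kinase G and the exchange factors encoded by Rapgef3 and Rapgef4. The subfamilies differ in substrate and in control. PDE1 enzymes are switched on by calcium and calmodulin, PDE3 enzymes cleave cAMP and are inhibited by cGMP, PDE4 enzymes are specific for cAMP, and PDE5 and PDE9 enzymes for cGMP. Pde1c has been studied in proliferating smooth muscle cells, where it degrades both nucleotides.

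The libraries held 23810036 to 35864666 counts on genes per mouse. Reads on no gene made up 8.02% to 12.7% of the table in controls and 11.2% to 14.9% in AZ6983 mice. The 10 most abundant genes took 30.2% of the counts in mouse A5 and at most 22.1% in any other. Smooth muscle markers, the defining markers of the aortic wall, were all detected in every mouse, with a mean log2 CPM of 9.33 to 9.65 in controls and 9.11 to 9.62 in AZ6983 mice, where CPM are counts scaled per library after TMM normalization. Markers of other cell types were detected too. The brown fat markers had a mean log2 CPM of 6.99 to 7.84 in controls and 7.05 to 8.33 in AZ6983 mice, highest in A5 and lowest in C6. Neutrophil markers were at 0.511 to 2.08 in controls and 1.60 to 4.05 in AZ6983 mice, and thymocyte and T cell markers stood at 6.43 in mouse A4 against 1.96 at most elsewhere. Apoe, the deleted gene, still gave 117 to 306 counts in controls and 214 to 311 in AZ6983 mice, and Chrna7 gave 27 to 114 and 19 to 76 counts.

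Pde1c was lower in every AZ6983 mouse than in any control. The enzyme is the calcium-activated member that cleaves cAMP and cGMP with similar affinity. In control aortas its level was lowest at 4.15 CPM, with a median of 4.78 and a highest value of 5.79 CPM. In AZ6983 aortas the lowest value was 3.19, the median 3.62 and the highest 3.88 CPM, so the groups did not overlap. The group means (± SD, n = 6) were 4.92 ± 0.565 and 3.59 ± 0.281 CPM, and edgeR put the log2 fold change at −0.45 with a standard error (SE) of 0.108. These levels rest on 105 to 166 counts in a control library and on 82 to 134 in an AZ6983 library. In whole aorta, fewer cells of the type that transcribes Pde1c and less Pde1c RNA per cell cannot be told apart. The groups were likewise apart for 0.41% of the 15857 genes tested, and for 0.151% with AZ6983 lower, and nothing is read from these shares for a gene picked by this contrast. The control nearest the AZ6983 mice was C2 at 4.15 CPM, the only control whose share of reads on no gene (12.7%) lay within the range of the AZ6983 mice. With that share as a covariate, the log2 fold change of Pde1c was −0.38. The share was 8.02% to 12.7% in controls and 11.2% to 14.9% in AZ6983 mice, so it largely followed treatment. The fit therefore cannot tell the share from the treatment, and the part of the share in the difference of Pde1c was not tested.

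Pde1c spans chr6:56069804-56569103 on the minus strand of mm10 (GENCODE M21), and none of its exon sequence is shared with another annotated gene. RefSeq places 3 transcription starts of Pde1c within this span, and the windows around them (250 bases before the start to 50 after, GRCm38.p6, written 5′ to 3′ on the minus strand) are printed because Pde1c was the member whose groups did not overlap. Each was searched on both strands for TGACGTCA, the full cAMP response element bound by CREB, for its shorter form TGACG, which the full element contains, and for the CArG box of smooth muscle genes. None of the 3 motifs was found in the Pde1c windows, which says only that these letters are not there. Windows of Pde1a and Pde4b, the only members with a match, follow for comparison, with the match in capitals (CGTCA, which is TGACG read on the other strand).
Pde1c, chr6:56362343-56362642, minus strand: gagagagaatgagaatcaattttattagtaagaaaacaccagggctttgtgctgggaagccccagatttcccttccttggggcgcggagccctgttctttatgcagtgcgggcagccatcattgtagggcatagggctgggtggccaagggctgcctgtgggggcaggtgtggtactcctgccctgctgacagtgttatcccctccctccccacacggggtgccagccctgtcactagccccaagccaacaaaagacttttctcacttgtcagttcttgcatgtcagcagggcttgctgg
Pde1c, chr6:56369585-56369884, minus strand: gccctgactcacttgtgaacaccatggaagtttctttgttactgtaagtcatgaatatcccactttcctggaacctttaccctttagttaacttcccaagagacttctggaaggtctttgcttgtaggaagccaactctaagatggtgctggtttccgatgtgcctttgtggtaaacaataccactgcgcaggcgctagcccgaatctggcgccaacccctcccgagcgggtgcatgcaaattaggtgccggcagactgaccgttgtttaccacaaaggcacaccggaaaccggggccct
Pde1c, chr6:56362761-56363060, minus strand: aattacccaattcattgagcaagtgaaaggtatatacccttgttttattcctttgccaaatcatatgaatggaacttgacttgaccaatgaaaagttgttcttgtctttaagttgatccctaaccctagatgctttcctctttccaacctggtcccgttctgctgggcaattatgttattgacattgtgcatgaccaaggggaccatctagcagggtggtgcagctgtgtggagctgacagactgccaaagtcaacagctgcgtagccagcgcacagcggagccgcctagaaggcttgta
Pde1a, chr2:80038853-80039152, minus strand: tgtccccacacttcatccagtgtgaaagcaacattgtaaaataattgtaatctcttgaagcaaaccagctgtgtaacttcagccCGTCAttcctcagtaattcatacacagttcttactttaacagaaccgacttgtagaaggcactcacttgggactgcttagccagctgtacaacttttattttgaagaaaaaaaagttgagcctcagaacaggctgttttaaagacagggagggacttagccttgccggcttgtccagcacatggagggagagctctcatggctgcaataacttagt
Pde4b, chr4:102421305-102421604, plus strand: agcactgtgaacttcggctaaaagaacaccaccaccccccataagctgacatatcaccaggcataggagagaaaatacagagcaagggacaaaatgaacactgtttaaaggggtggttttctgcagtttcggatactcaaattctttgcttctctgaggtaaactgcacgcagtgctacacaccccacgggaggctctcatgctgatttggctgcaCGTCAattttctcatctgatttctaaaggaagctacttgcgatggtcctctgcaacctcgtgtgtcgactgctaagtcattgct
The table of promoters held 18 windows for 7 of the 10 genes, with no entry for Pde3a, Pde3b or Pde9a. TGACG was in 2 of the 18 windows and in 20.8% of all 32851 windows. The full TGACGTCA was in 0 of the 18, against 1.79% of all windows, and the CArG box in 0 of the 18, against 1.63%. The Pde1a match begins 166 bases and the Pde4b match 34 bases before the start. A match is a description of the sequence and does not show binding.

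The other PDE1 genes did not show the pattern of Pde1c. Pde1a (chr2:79834453-80129458, minus strand), a calmodulin-dependent enzyme that prefers cGMP, had the steadiest level of the 10 genes, with a coefficient of variation within groups of 4.24%, and its dispersion was lower than that of all but 2.12% of the genes tested. Its lowest, median and highest levels were 35.3, 37.5 and 39.4 CPM in controls against 34.8, 37.1 and 38.7 CPM in AZ6983 mice, which edgeR put at a log2 fold change of −0.03 (SE 0.047, adjusted p = 0.853 by its quasi-likelihood test). Only 1 of the 6 AZ6983 mice was below the lowest control. Pde1b (chr15:103503034-103530052, plus strand), which is best known from brain and immune cells, ran from 3.65 through a median of 4.64 to 5.88 CPM in controls against 4.82 through 5.29 to 5.56 CPM in AZ6983 mice, all within the control range (log2 fold change 0.15, SE 0.124, adjusted p = 0.66, edgeR). Without C4 the log2 fold change of Pde1b was 0.09. Because Pde1a varied so little, it gives a reference within the subfamily. For each 100 counts of Pde1a, control mice had 11.8 to 15.6 counts of Pde1c (median 12.4) and AZ6983 mice 8.58 to 10.9 (median 9.78). With so steady a reference, the ratio repeats the difference by which Pde1c was picked. That it does not overlap between the groups adds nothing to that difference and carries no test.

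**Figure D1:**
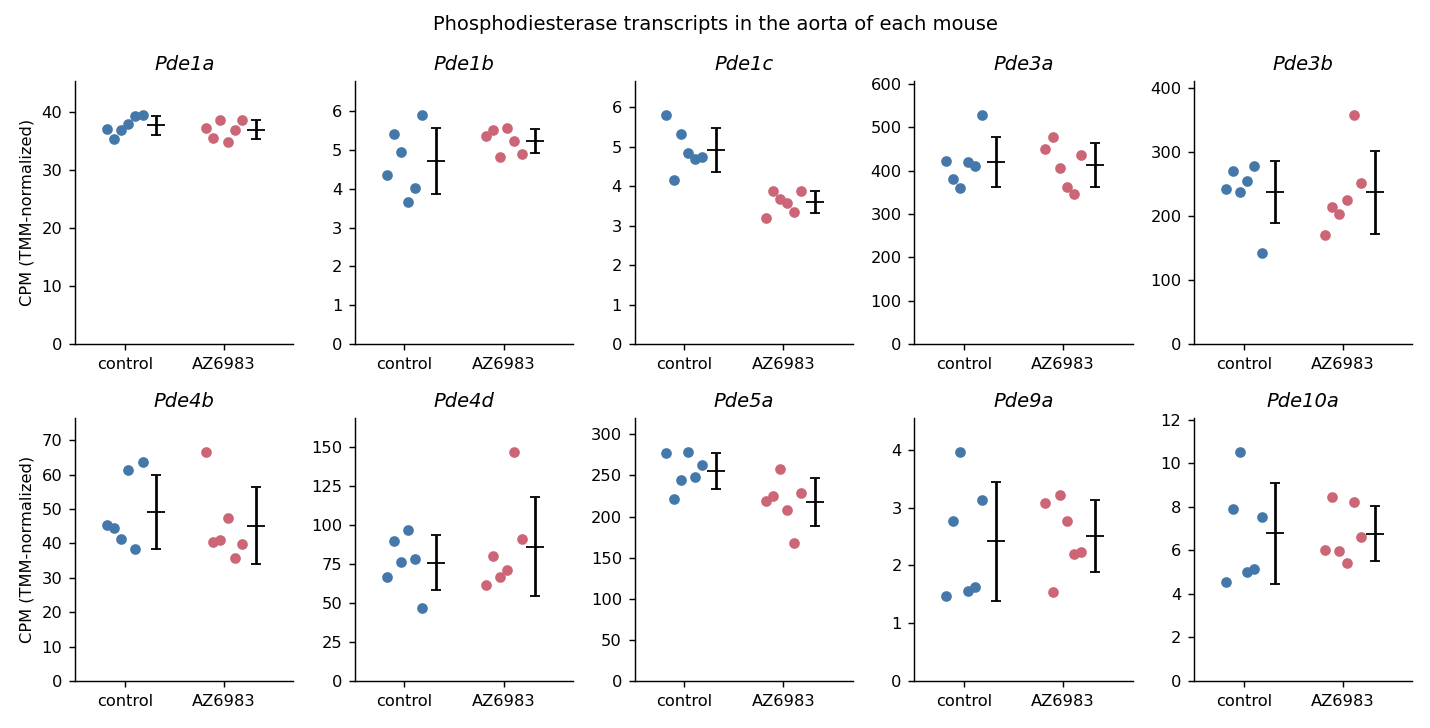
Each panel plots 1 phosphodiesterase gene, with TMM-normalized CPM on a linear axis from 0, 1 point per mouse, and a bar for the mean ± SD of 6 mice per group. In the Pde1c panel the 6 AZ6983 mice lie between 3.19 and 3.88 CPM, below all controls, while the groups overlap in the other 9 panels.

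Pde3a and Pde3b, the cAMP-cleaving and cGMP-inhibited enzymes, were, with Pde5a, the most abundant members and had nearly equal means in both groups. Pde3a (chr6:141249269-141507448, plus strand) is the form of cardiac muscle, platelets and arterial smooth muscle. Its lowest, median and highest levels were 359, 415 and 527 CPM in controls against 346, 421 and 478 CPM in AZ6983 mice (log2 fold change −0.02, SE 0.105, adjusted p = 0.95, edgeR). Pde3b (chr7:114415281-114539251, plus strand), which mediates the antilipolytic effect of insulin in adipocytes, ran from 143 through 248 to 278 CPM in controls against 171 through 219 to 357 CPM in AZ6983 mice. The low control was C6 and the high AZ6983 mouse was A5, the mice with the lowest and highest brown fat scores. The log2 fold change of Pde3b was −0.003 with all mice (SE 0.184, adjusted p = 0.997, edgeR) and −0.18 without A5.

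The cAMP-specific Pde4b and Pde4d were spread more widely than the PDE1 genes. Pde4b (chr4:102087543-102607259, plus strand), the form induced in activated monocytes and macrophages, had lowest, median and highest levels of 38.5, 44.9 and 63.6 CPM in controls against 35.7, 40.6 and 66.6 CPM in AZ6983 mice (log2 fold change −0.12, SE 0.166, adjusted p = 0.803, edgeR). The log2 fold change was −0.27 without A1 and −0.04 without C6. Mouse A1 was the highest of all 12, and the other 5 AZ6983 mice were at or below 47.4 CPM. Pde4d (chr13:108449948-109953461, plus strand), an enzyme with many isoforms whose gene extends over 1503514 bases, ran from 47.0 through 77.1 to 96.7 CPM in controls against 61.3 through 75.7 to 147 CPM in AZ6983 mice. Again C6 was lowest and A5 highest, a 3.12-fold span that was the widest of the 10 genes. The edgeR log2 fold change of Pde4d was 0.19 (SE 0.218, adjusted p = 0.765), and −0.05 without A5.

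Pde5a (chr3:122728947-122859374, plus strand), specific for cGMP, had the largest log2 fold change of the 10 genes after Pde1c. PDE5A terminates the cGMP signal of nitric oxide in smooth muscle and is the target of sildenafil. Its lowest, median and highest levels were 222, 255 and 278 CPM in controls against 168, 222 and 257 CPM in AZ6983 mice. The groups overlapped, with 3 of 6 AZ6983 mice below the lowest control and 5 of 6 below the control median. The log2 fold change was −0.23 (SE 0.094), with an unadjusted p of 0.0299 and an adjusted p of 0.466 from edgeR, which did not pass 10% FDR. The lowest mouse was A5, which also had the lowest smooth muscle score (9.11), and without A5 the log2 fold change was −0.18. The part of smooth muscle content in this difference was not tested. Pde9a (chr17:31386210-31476310, plus strand), the enzyme with the highest affinity for cGMP, had only 42 to 115 counts per mouse, with 1.46 to 3.97 CPM in controls against 1.55 to 3.21 CPM in AZ6983 mice (log2 fold change 0.05, SE 0.276, adjusted p = 0.96, edgeR). Pde10a (chr17:8525372-8986648, plus strand), which cleaves both nucleotides and is best known from striatal neurons, ran from 4.57 through 6.34 to 10.5 CPM in controls against 5.40 through 6.31 to 8.45 CPM in AZ6983 mice (log2 fold change −0.002, SE 0.207, adjusted p = 0.999, edgeR). The AZ6983 mice lay within the control range for Pde10a, whose log2 fold change was −0.36 with reads on no gene as a covariate.

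At 10% FDR edgeR called 0 of the 10 genes, where it called 0% of the 15857 genes tested, and limma-voom likewise called 0. Without A5 edgeR called 0.169% of genes and with the brown fat score as a covariate 0.126%, and 0 of the 10 in either fit. Of the 9 genes other than Pde1c, only Pde5a was under an unadjusted p of 0.05, where 10.2% of all genes were, 2.81% lower and 7.38% higher on AZ6983. DESeq2, run as an alternative on every gene, called 0.523% of 17592 genes (0.153% lower on AZ6983) and 1 of the 10, Pde1c, from which nothing is read because the gene was picked by this contrast. The median log2 fold change of the 10 genes was −0.01, with 3 positive and 7 negative, against 0.01 over all genes tested, of which 47.6% were below 0.

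The phosphodiesterases not among the 10 were compared in the same fit. Of 11 listed catalytic genes, 9 had a row and 8 passed the filter, and edgeR called 0 of the 8, with 0 at an unadjusted p under 0.05. Their log2 fold changes ran from −0.11 for Pde11a to 0.25 for Pde8a, with a median of 0.08. Pde8a, a high-affinity cAMP enzyme, averaged 31.2 ± 3.66 CPM in control and 37.2 ± 9.39 CPM in AZ6983 aortas (mean ± SD of 6 mice, log2 SE 0.142, adjusted p = 0.538, edgeR). Pde6a, a photoreceptor gene, had 0 to 2 counts per mouse. Pde2a, a cGMP-stimulated enzyme, shares 64.3% of its exon bases with the gene model Gm45837 on the same strand, so its counts are uncertain. Among genes named for phosphodiesterases without being one, Pde4dip, which encodes a scaffold that binds PDE4D, averaged 325 ± 22.2 CPM in control and 317 ± 53.9 CPM in AZ6983 aortas (mean ± SD of 6 mice), and Pde6d, a prenyl-binding chaperone, moved by −0.08 on the log2 scale (SE 0.065).

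**Figure D2:**
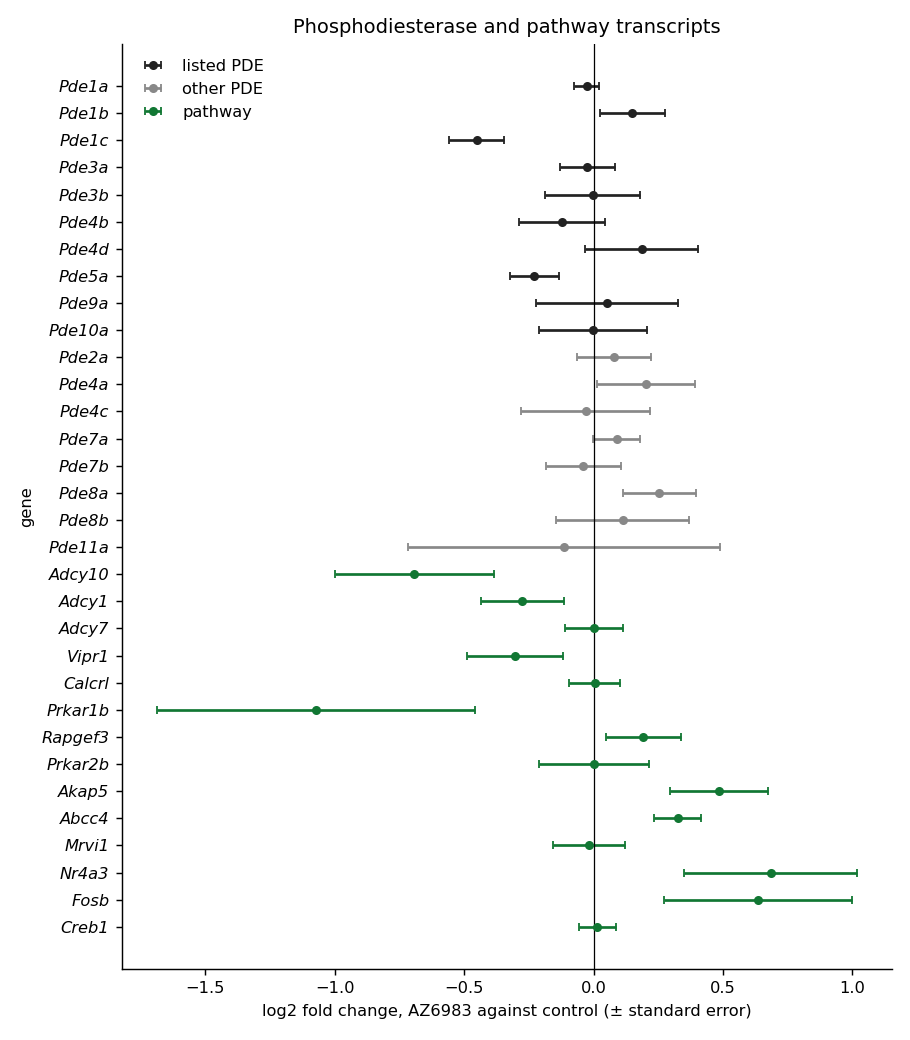
Points are log2 fold changes of AZ6983 against control from edgeR, with bars of ± 1 SE (standard error), for the 10 listed phosphodiesterases (black), the other 8 tested (grey) and pathway genes chosen by rule (green). Pde1c, which was picked by this contrast, is at −0.45, and the other phosphodiesterases run from −0.23 for Pde5a to 0.25 for Pde8a.

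Levels of different genes were compared per kilobase of exon. Pde3a, Pde3b and Pde5a stood at the top, with means over 12 mice of 32.7, 26.0 and 24.1 CPM per kilobase. Pde4d (6.74), Pde1a (6.21) and Pde4b (4.46 CPM per kilobase) formed a middle range, and Pde1b (0.92), Pde9a (0.696), Pde10a (0.527) and Pde1c (0.212 CPM per kilobase) the low end. Pde1c was thus the lowest of the 10, and Pde3a exceeded it 154-fold. An exact sign-flip permutation test over 12 mice (two-sided, Benjamini-Hochberg adjusted over 9 neighbouring pairs) separated 7 of the 9 pairs. Pde3b and Pde5a did not differ beyond their spread (log2 ratio 0.09, higher in 7 of 12 mice, exact adjusted p = 0.604), nor did Pde4d and Pde1a (log2 ratio 0.07, 7 of 12 mice, exact adjusted p = 0.604). The closest pair that did differ was Pde3a over Pde3b (log2 ratio 0.36, 11 of 12 mice, exact adjusted p = 0.0276).

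The order depends in part on the length used. Pde1c has 20.067 kilobases of exon in all its annotated transcripts but 8.766 in the longest one, and per kilobase of longest transcript Pde3a exceeded Pde1c 69.8-fold and Pde1c was still the lowest of the 10. With that length Pde3b came before Pde3a (log2 ratio of Pde3a over Pde3b −0.07, exact adjusted p = 0.647), and Pde4b before Pde1a (log2 ratio of Pde1a over Pde4b −0.29, exact adjusted p = 0.00791). Pde4d was then above Pde1a (log2 ratio 1.08, exact adjusted p = 0.0022), Pde1b and Pde9a were no longer separated (log2 ratio 0.06, exact adjusted p = 0.647), and 5 of the 9 pairs were separated in the order given.

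**Figure D3:**
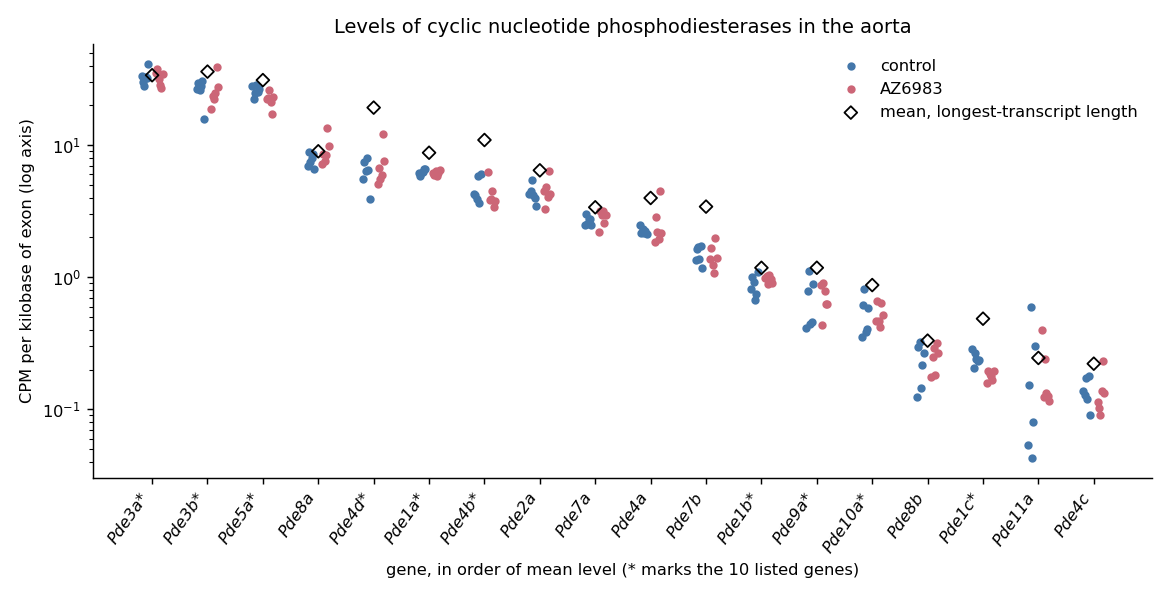
CPM per kilobase of exon, on a log axis, is plotted for 18 phosphodiesterase genes in order of mean level, with 1 point per mouse in blue for control and red for AZ6983, an open diamond for the mean with longest-transcript length, and an asterisk at each of the 10 listed genes. Pde3a, Pde3b and Pde5a lie at 24.1 to 32.7 CPM per kilobase on average and Pde1c at 0.212.

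Summed over 19 phosphodiesterase genes, the level was 124 ± 4.13 CPM per kilobase in control and 122 ± 9.23 in AZ6983 aortas (mean ± SD, 6 mice each, as for the shares that follow). The 10 genes made up 84.6% ± 1.41 of this sum in controls and 82.7% ± 2.16 with AZ6983. The PDE3 genes alone took 47.8% ± 1.45 and 47.9% ± 1.38. By substrate, the genes classed as cleaving both nucleotides held 57.8% ± 1.08 in controls and 58.3% ± 0.79 with AZ6983. This class includes the PDE3 genes, so the cAMP-selective share is not that of all enzymes that cleave cAMP. The cGMP-selective genes, mostly Pde5a, held 21.6% ± 1.62 in controls and 18.9% ± 3.31 in AZ6983 mice. The cAMP-selective genes held 20.6% ± 1.51 and 22.8% ± 2.83. Mouse A5 was at the end of the ranges of these selective genes, with the lowest cGMP-selective share of the 12 mice, 12.9%, and the highest cAMP-selective share, 28.3%. Pde1c contributed 0.199% ± 0.025 of the sum in controls and 0.148% ± 0.015 with AZ6983.

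Several of the genes varied between mice together with the cell type marker scores. For each gene and each of 12 marker lists, log2 CPM and the mean log2 CPM of the list were centred within the groups and correlated over 12 mice, giving 120 pairs. At 10% FDR 11 pairs passed on Pearson's r (permutation within groups, two-sided), of which 9 were positive. Of the 11, 7 also passed on Spearman's rho by the same permutation. Those that did not were Pde4d with white fat (adjusted permutation p of rho 0.13), Pde3a with macrophage (0.132), Pde3b with fibroblast (0.155) and Pde9a with nerve (0.155). All values of a mouse come from 1 library, so they share its depth and composition.

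Pde4d and Pde3b passed with the brown fat score, and with white fat. Pde4d had r = 0.95 (permutation p = 0.00024, adjusted p = 0.0288) and rho = 0.94 (permutation p = 0.00019, adjusted p = 0.0228), with r = 0.95 within controls and 0.96 within AZ6983 mice. Pde3b, an adipocyte gene, had r = 0.92 (permutation p = 0.00193, adjusted p = 0.0463) and rho = 0.90 (permutation p = 0.00123, adjusted p = 0.0627). Of the 10 brown fat markers 9 were tested, and Zic1 was at 0 in at least 1 mouse. Mice C6 and A5 lie at the ends of the score. Without these 2 mice r was 0.78 for Pde4d (permutation p = 0.00983, adjusted p = 0.472) and 0.60 for Pde3b (permutation p = 0.181, adjusted p = 0.638). With 10 mice 0 of the 120 pairs passed, so the part of these 2 mice cannot be told apart from that of the smaller number. With the white fat score Pde4d had r = 0.79 (permutation p = 0.00397, adjusted p = 0.0794, and rho = 0.73, permutation p = 0.0119) and Pde3b r = 0.77 (permutation p = 0.00672, adjusted p = 0.0819, and rho = 0.83, permutation p = 0.00216), and these were 0.63 and 0.71 without A5 and C2. Pde4d also passed with the endothelial score (r = 0.80, permutation p = 0.00688, adjusted p = 0.0819, and rho = 0.81, permutation p = 0.00375), and r was 0.28 there without A5 and C6. With the brown fat score as a covariate in the edgeR fit, the log2 fold change of Pde4d was 0.34 (adjusted p = 0.148, against 0.19 without the covariate), that of Pde3b was 0.14 and that of Pde1c −0.46.

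**Figure D4:**
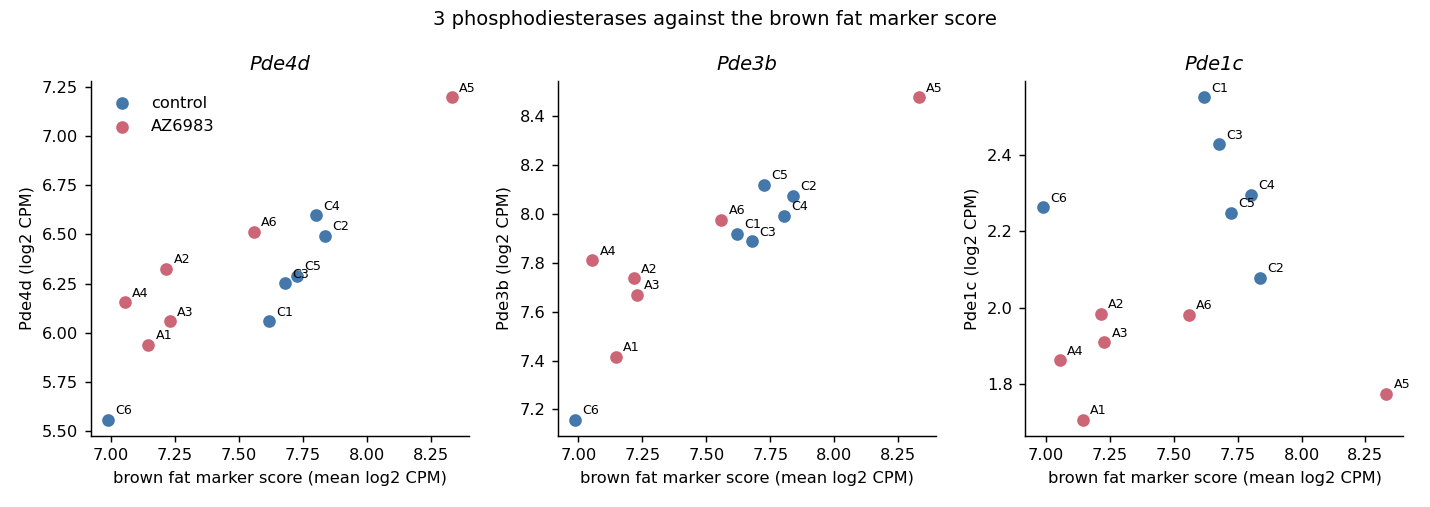
Log2 CPM of Pde4d, Pde3b and Pde1c is plotted against the mean log2 CPM of the brown fat markers, with 1 labelled point per mouse, blue for control and red for AZ6983. Pde4d and Pde3b rise with the score from C6 (6.99) to A5 (8.33). In the Pde1c panel the AZ6983 mice lie below the controls, the difference by which Pde1c was picked. No control has a score as high as that of A5.

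Pde3a passed with the fibroblast, macrophage and smooth muscle scores. With the fibroblast score it had r = 0.83 (permutation p = 0.00094, adjusted p = 0.0376) and rho = 0.83 (permutation p = 0.00339, adjusted p = 0.0627), and without A1 and A2, the mice farthest from the median score, r = 0.81 (permutation p = 0.00862, adjusted p = 0.472). Pde3b ran against the smooth muscle score (r = −0.79, permutation p = 0.00088, adjusted p = 0.0376, and rho = −0.78, permutation p = 0.00296, adjusted p = 0.0627), and without A5 and C2 r was −0.61 (permutation p = 0.0776, adjusted p = 0.505). The 2 PDE3 genes thus had opposite signs with the same lists. With the macrophage score Pde3a had r = 0.77 (permutation p = 0.00544, adjusted p = 0.0819, and rho = 0.76, permutation p = 0.0133), and without A5 and C3 r was 0.61. Pde3a had r = 0.71 with the smooth muscle score (permutation p = 0.00751, adjusted p = 0.0819, and rho = 0.81, permutation p = 0.00295), and Pde3b r = −0.72 with the fibroblast score (permutation p = 0.006, adjusted p = 0.0819, and rho = −0.64, permutation p = 0.0232). Without the 2 farthest mice of each score, the smooth muscle value of Pde3a was 0.58 and the fibroblast value of Pde3b −0.77. Pde9a followed the nerve score (r = 0.85, permutation p = 0.00146, adjusted p = 0.0438, and rho = 0.73, permutation p = 0.0225, adjusted p = 0.155), and without C1 and C3 r was 0.72 (permutation p = 0.0269, adjusted p = 0.472). Without the 2 farthest mice 0 of the 120 pairs passed 10% FDR, although all 11 kept their sign.

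Pde1c had no correlation past 10% FDR with any of the 12 scores. Its r ran from −0.47 with white fat (permutation p = 0.149, adjusted p = 0.458) to 0.34 with smooth muscle (permutation p = 0.276, adjusted p = 0.614). It was 0.03 with the neutrophil score (permutation p = 0.921, adjusted p = 0.99) and −0.11 with the thymocyte and T cell score (permutation p = 0.723, adjusted p = 0.926). All 9 tested neutrophil genes and all 8 tested thymocyte and T cell genes were higher on AZ6983 at an unadjusted p under 0.05 in edgeR (7.38% of all genes). The median neutrophil score was 1.51 for controls and 2.84 for AZ6983 mice. For thymocytes and T cells the control median (0.819) was above the AZ6983 median (0.682). Mouse A4 reached 6.43 on that score and no other mouse passed 1.96, so its rise was not shared by the AZ6983 group. The correlations are centred within groups and do not bear on the difference of Pde1c between the groups. The part of these cells in that difference was not tested. Among 13993 genes with a mean of at least 1 CPM, those whose levels, centred within groups, were most like Pde1c over 12 mice were Slc33a1 (r = 0.87), an acetyl-CoA transporter of the endoplasmic reticulum, the zinc finger genes Zfp39 (0.87) and Zfp93 (0.86), the gene model Gm5834 (0.86) and Rab29 (0.84), a small GTPase. These are the top of a ranked search and carry no test. The most similar of the other 9 phosphodiesterases was Pde5a (r = 0.53), at rank 352.

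**Figure D5:**
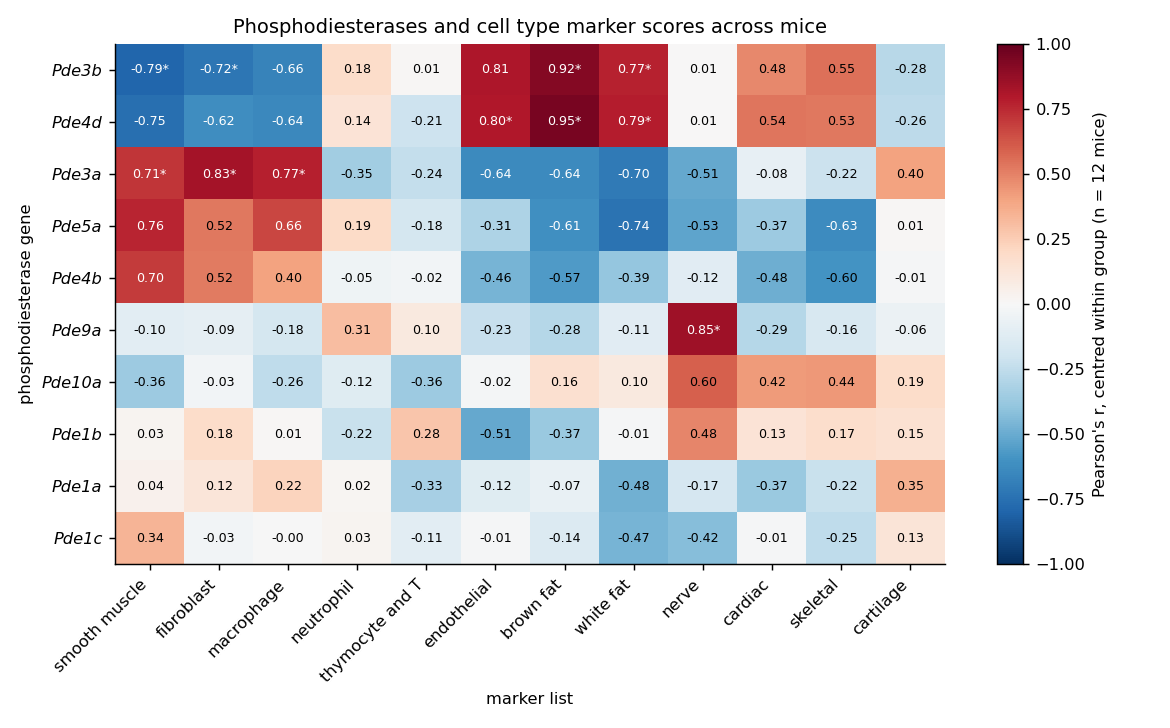
The heat map gives Pearson's r between each of the 10 phosphodiesterases (rows) and the 12 marker scores (columns), centred within group, over 12 mice. Red is positive, blue is negative and an asterisk marks the 11 pairs past 10% FDR by permutation, among them the brown fat values of Pde4d (0.95) and Pde3b (0.92), while the Pde1c row has none.

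The other genes of cyclic nucleotide signalling were read from 5 lists of 76 genes, of which 73 passed the filter. EdgeR called 0 of the 73 at 10% FDR, with 5 higher and 2 lower at an unadjusted p under 0.05 (7.38% and 2.81% of all genes, which also stand behind the counts for each list), and their median log2 fold change was 0.02 against 0.01 over all genes. DESeq2 called 1 of them. Of 15 cyclase genes 1 was lower at an unadjusted p under 0.05, Adcy10, the bicarbonate-sensitive soluble adenylyl cyclase (log2 fold change −0.69, SE 0.307, adjusted p = 0.482, edgeR), with 4 of 6 AZ6983 mice below the lowest control. Adcy7, a membrane cyclase, averaged 113 ± 12.7 CPM in control and 114 ± 19.0 CPM in AZ6983 aortas (mean ± SD of 6 mice).

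Of 15 receptors that raise cAMP, 1 was higher and 0 were lower at an unadjusted p under 0.05. Calcrl, part of the receptors for adrenomedullin and CGRP, averaged 129 ± 6.20 and 129 ± 21.8 CPM (mean ± SD of 6 mice). Of 13 effector genes 0 were under an unadjusted p of 0.05. Prkar1b, a regulatory subunit of protein kinase A, had the widest spread, 74 to 1112 counts in controls and 97 to 389 in AZ6983 mice (log2 fold change −1.07, SE 0.615).

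Of 18 anchor, transporter and substrate genes 3 were higher and 1 lower at an unadjusted p under 0.05. Abcc4, an exporter of cyclic nucleotides, moved by 0.33 on the log2 scale (SE 0.091, adjusted p = 0.447, edgeR) with 3 of 6 AZ6983 mice above the highest control, and Akap5, an anchor of protein kinase A, by 0.48 (SE 0.189, adjusted p = 0.454, edgeR). The third was Abcc5, another exporter, at 0.23 (SE 0.098). Of 12 transcripts of CREB family members and CREB targets, 11 had a positive log2 fold change, as did 52.4% of all genes, and the median was 0.29, with 1, Atf1, at an unadjusted p under 0.05 (log2 fold change 0.17, SE 0.074). Nr4a3 had 0.68 (SE 0.336), Fosb 0.64 (SE 0.365) and Creb1 itself 0.01 (SE 0.071). Mouse A5 was the highest of the 12 mice for 5 of the 12 transcripts (Atf1, Nr4a2, Nr4a3, Per1 and Ppargc1a, which is also a brown fat marker), and its part in the median was not tested. Several immediate early genes of this list varied widely between mice, Fos from 405 to 3928 counts in controls.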

How the data were processed

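Members and gene lists were chosen with earlier results of these data known. The authors prepared stranded total RNA libraries after removal of ribosomal RNA, sequenced both ends of fragments by 75 bases and deposited raw counts per gene symbol. The submitters' processing notes name CASAVA 1.8.2, STAR 2.5.2b, HTSeq 0.6.1p1 and mm10, while the strand setting and annotation are not given in the sources used here. The 3 rows that name no gene entered neither library sizes nor tests. Groups came from the sample labels. The column of mouse A1 was matched by 3 of the 4 digits of its number and the other 11 in full. The columns also end in a number whose meaning is not given, and 5 of the 6 controls are numbered 3 to 7. No 2 libraries were copies, with chi-square per degree of freedom of 13.1 to 247 over 66 pairs.

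Counts of the 12 mice were compared in edgeR 4.0.16 (R 4.3.3, TMM, filterByExpr, quasi-likelihood, no covariate, Benjamini-Hochberg over 15857 genes, 10% FDR). Each mouse gave 1 library, and the labels give no batch, litter or pairing. CPM used TMM library sizes, log2 CPM a prior count of 2, and levels per kilobase the exon bases of GENCODE M21 or, as an alternative, the longest transcript. Within-group correlations used 100000 permutations. Alternatives were DESeq2 1.42.0, limma-voom (limma 3.58.1), other size factors, no filter, a covariate for reads on no gene and each mouse left out. A fit without A4 and A5 and one with the brown fat score were chosen after seeing the data. Pathway genes were named by rule, the 2 largest and the 1 smallest log2 fold change by size in each list among genes with a mean of at least 1 CPM, and Abcc5, Atf1, Fos and the genes named beside the phosphodiesterases fall outside it. Values of some pathway genes are not reported here. The fits were tested on simulated mice, 6 against 6, in which 200 of 15857 genes had been changed. EdgeR recovered 170 of them (14 false calls), limma-voom 169 (13 false) and DESeq2 175 (48 false). Every planted change was larger than the log2 fold change of any listed phosphodiesterase, and genes were drawn independently of each other. The recovery therefore does not show how often changes as small as those of the phosphodiesterases would be found.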

Additional observations from a re-analysis of the deposited data

Results flagged for a closer look

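In 5 of 64 groups of 6 mice 1 mouse stood far from the others by Dixon's test, where chance alone gives about 3.2. Pde3b was at 7.16 log2 CPM in control C6, against 7.89 to 8.12 in the other controls. The brown fat score was 6.99 in C6, against 7.62 to 7.84, and the endothelial score 6.25 in C6, against 6.4 to 6.47. The thymocyte and T cell score was 6.43 in A4, against −0.452 to 1.96 in the other AZ6983 mice, and the cardiac score 4.87 in control C2, against 0.832 to 2.11.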

How the results depend on the processing

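Pde1b, Pde1c and Pde5a kept their direction in all 21 alternatives. Pde1c was picked as lower and its groups did not overlap, so leaving out 1 mouse could hardly turn it. Nothing is read from its steady direction. Pde1c ranged from −0.47 to −0.38 over 9 settings and from −0.51 (without C2) to −0.40 (without C1) with 1 mouse left out, and Pde5a from −0.28 to −0.14 and from −0.29 to −0.18. Genes called at 10% FDR, 0 in the edgeR fit with all mice, were 92 with DESeq2 on every gene and 84 on filtered genes, which included 1 of the 10 phosphodiesterases (Pde1c) and 1 pathway gene each time. They were 20 with the brown fat score as a covariate, and 0 to 27 with 1 mouse left out, with 27 without A5 and 1 each without A1 and C6, but then 0 of the 10 and 0 pathway genes. With a covariate for reads on no gene, the log2 fold changes of Pde1a (0.0012) and Pde4b (0.0887) turned positive. In that fit Pde10a moved to −0.3647 and Pde1b to 0.0137, without a change of sign. Without A4 and A5 that of Pde3a was 0.0605 and that of Pde4d −0.0335. With the brown fat score those of Pde3b, Pde9a and Pde10a were 0.1415, −0.0106 and 0.0202, and limma-voom gave 0.0304 for Pde10a. With longest-transcript lengths the log2 ratio of Pde3a over Pde3b was −0.065 and of Pde1a over Pde4b −0.2907. The cause of these turns and shifts was not tested. With 1 mouse left out, Pde1b ranged from 0.0855 to 0.2229, Pde4b from −0.2678 to −0.0356, Pde3a from −0.0849 to 0.0506, Pde3b from −0.1784 (without A5) to 0.074, Pde4d from −0.0522 (without A5) to 0.2679, Pde9a from −0.0582 to 0.2405 and Pde10a from −0.0935 to 0.156. Correlations past the threshold fell from 11 to 0 without the 2 farthest mice. With DESeq2 size factors in place of TMM, 9 passed. Pde3a with smooth muscle and Pde3b with fibroblast then did not (adjusted permutation p of r 0.131 each). No paired analysis was possible because the labels give mouse numbers that no 2 groups share. Counts of 42 to 209 per mouse limit the precision of Pde9a, Pde1b and Pde1c.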
